A study of Mus musculus with 24 samples.

Results

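The interleukin-1 family is a set of secreted or alarm-like cytokines with their receptors. The genes described here are the ligands Il1a, Il1b, Il18, Il33 and Il1f9, the antagonist Il1rn, and the receptor genes Il1r1, Il1r2, Il1rap and Il1rl1. They were taken by symbol from the array's annotation, with the brightest probe set where a gene had several. Of the 10 genes listed, 9 were measured, each by 1 probe set, among 18820 genes in all. Il1rl1, the receptor of interleukin-33, had no probe set paired with it in the annotation table used and was not analysed here.

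Expression was measured on 24 one-colour Affymetrix arrays of mouse liver and of primary hepatocytes, with 3 arrays in each of 8 groups. The mice were 8-week-old males of 4 genotypes: NEMOΔhepa (NEMO knockout), KEAP1Δhepa (KEAP1 knockout), NEMOΔhepa/KEAP1Δhepa (double knockout) and NEMOf/f (control). The floxed NEMO and KEAP1 alleles were deleted with Alfp-Cre, a transgene for liver parenchymal cells. Whether all other liver cells kept both genes was not measured here. The control carries floxed NEMO without the knockout, and no group with floxed KEAP1 without Cre was among the samples. Hepatocytes were isolated by collagenase perfusion and cultured in serum-containing medium until the day after plating. NEMO is the regulatory subunit that the IκB kinase complex needs for canonical NF-κB activation, and KEAP1 holds the antioxidant transcription factor NRF2 in check.

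Interleukin-1 alpha and beta act through one receptor, which pairs with a shared accessory chain and signals through MyD88 and IRAK kinases to NF-κB. Interleukin-1 alpha is active without cleavage and serves as an alarm signal of dying cells, whereas interleukin-1 beta and interleukin-18 are cut by caspase-1. In liver these cytokines come mostly from Kupffer cells and other macrophages. Interleukin-33 in the liver is known mainly from stellate and endothelial cells. Hepatocytes themselves express the signalling receptor and respond to interleukin-1 with acute phase proteins.

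Positions are those of GRCm38.p6, the build of the RefSeq gene table used. On chromosome 2, Il1f9 spans 24186476 to 24193567 and lies near Il1rn at 24336860 to 24351491, while far from them lie Il1a at 129299609 to 129310186 and Il1b at 129364569 to 129371164. On chromosome 1, Il1r2 spans 40084692 to 40125230, Il1r1 40222480 to 40316201 and Il1rl1 40404864 to 40465418. Il18 lies on chromosome 9 from 50554700 to 50581841, Il1rap on chromosome 16 from 26581509 to 26730128 and Il33 on chromosome 19 from 29925113 to 29960718.

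Several arrays stood apart or went against their labels, and the limma comparisons below were also fitted without 4 of them. In those fits control and double knockout groups of both tissues each have an array fewer than the single knockout groups. The replicate block, group means, group orders and ranges of values used all arrays. The liver array labelled control 3 had a mean log2 value of 10.09 over 13 NRF2 target genes, the level of double knockout livers (10.12 to 10.17), against 6.88 and 7.08 on the other two liver control arrays. Liver double knockout 3 carried fat and duct genes, with Adipoq at 7.17, Ucp1 at 6.74 and Krt7 at 7.81. Hepatocyte arrays double knockout 3 and control 1 had the female transcript Xist at 9.76 and 9.65 while Eif2s3y, a gene of the Y chromosome, was at 2.71 and 2.51, which goes against the label of male mice. The targeted transcripts were lower by small margins in hepatocytes, except that Keap1 in KEAP1 knockout hepatocytes overlapped control. Ikbkg, which encodes NEMO, ranged from 6.26 to 6.60 in NEMO knockout and from 6.01 to 6.29 in double knockout hepatocytes, against 6.63 to 6.69 in control hepatocytes. Keap1 ranged from 5.73 to 5.91 in KEAP1 knockout and from 5.62 to 5.87 in double knockout hepatocytes, against 5.90 to 6.32 in control hepatocytes. In liver Ikbkg ranged from 6.14 to 6.26 in NEMO knockout and from 6.18 to 6.47 in double knockout, against 6.40 to 6.86 in control, and Keap1 from 5.38 to 5.76 in KEAP1 knockout and from 5.75 to 5.93 in double knockout, against 5.88 to 6.35 in control. Double knockout livers overlapped control livers for both transcripts. The log2 median of the arrays lay between 4.03 and 4.23.

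Among the cultured hepatocytes, loss of NEMO went with more Il1a and less Il18 transcript, and loss of both genes with more Il1a, Il1rn and Il33 and less Il1rap. In whole liver the fit without a replicate block called 1 difference with all arrays, Il1f9, higher in double knockout than in NEMO knockout livers. Same-numbered livers of several genotype pairs, double knockout and control among them, deviated weakly together. With the number as a block over all 12 liver arrays, double knockout against control livers gave 3 calls beside 4.25% of all genes. Il1f9 and Il33 were higher and Il1rap lower. With all arrays and no block, KEAP1 loss alone gave no called change against control in either tissue, and in liver 0.0% of all genes were called. Without the 4 arrays Il1f9 was called higher in KEAP1 knockout livers and Il1r1 lower in KEAP1 knockout hepatocytes. The block also gave a call in KEAP1 knockout hepatocytes. A change was called at an adjusted p under 0.05 from limma, adjusted over all 18820 genes by the Benjamini-Hochberg method, and a change is a difference of mean log2 values with its standard error (SE). In hepatocytes 2 of the 9 genes were called for NEMO knockout against control, beside 6.65% of all genes, 4 for double knockout against control, beside 9.72%, and 0 for KEAP1 knockout against control, beside 1.87%. Double knockout against KEAP1 knockout hepatocytes gave 3 calls beside 2.75% of all genes, and double knockout against NEMO knockout gave 0 beside 3.32%. In liver, without the block, the counts were 0 for NEMO knockout against control (1.33% of all genes), 0 for KEAP1 knockout against control (0.0%), 0 for double knockout against control (0.00531%), 1 for double knockout against NEMO knockout (1.05%) and 0 for double knockout against KEAP1 knockout (0.0%). At an unadjusted p under 0.05, 2, 0 and 3 genes passed in the NEMO, KEAP1 and double knockout comparisons with control in liver, and 2 for double knockout against KEAP1 knockout. In hepatocytes 2 passed for KEAP1 knockout against control and 3 for double knockout against NEMO knockout. No share of all genes is given beside these unadjusted counts or those below, so they are a description only. Without the 4 arrays, liver counts were 4 for NEMO knockout (12% of all genes), 1 for KEAP1 knockout (5.26%) and 4 for double knockout against control (9.2%), and 1 for double knockout against NEMO knockout (3.46%). In hepatocytes without them they were 1 for NEMO knockout (5.58%), 1 for KEAP1 knockout (1.82%) and 5 for double knockout against control (9.23%), 2 for double knockout against NEMO knockout (3.8%) and 4 for double knockout against KEAP1 knockout (3.78%). The median change of the 9 genes in double knockout against control hepatocytes was 0.82, beside -0.03 over all genes. In bulk RNA of this kind, fewer or more cells of a type cannot be told apart from less or more RNA per cell.

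**Figure D1:**
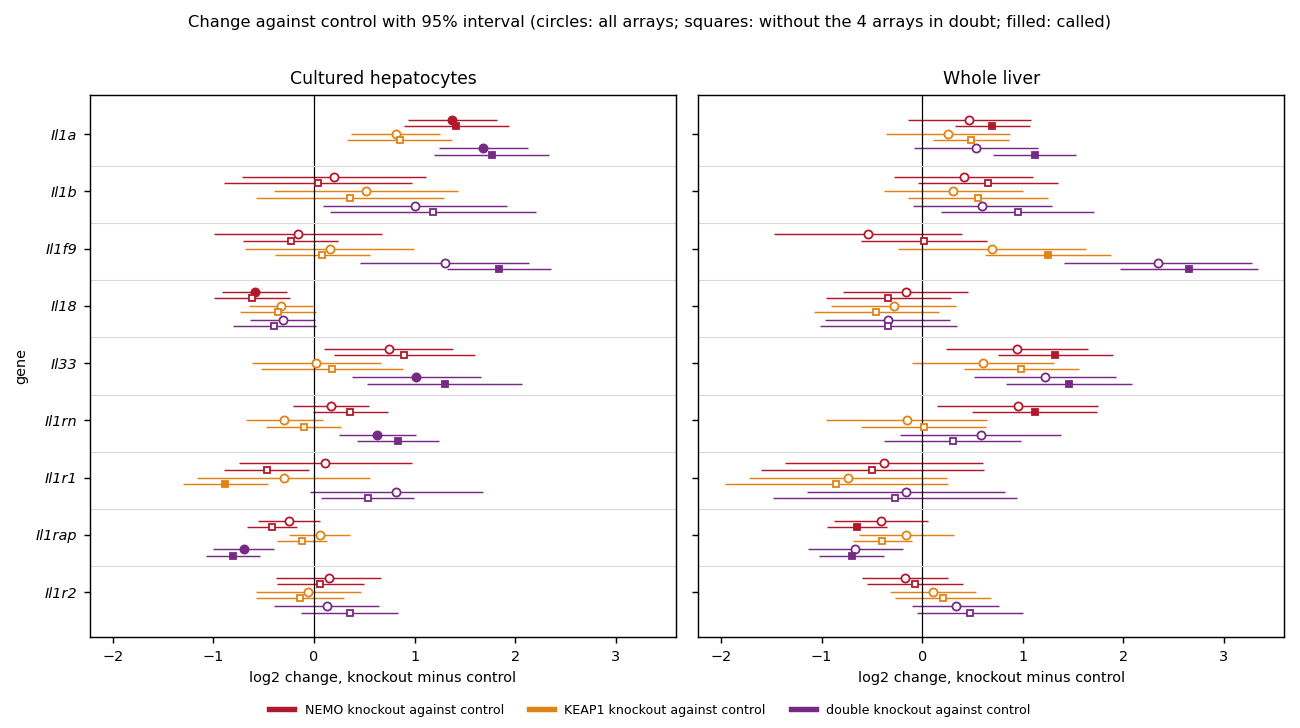
Change in log2 expression of each of the 9 genes in the NEMO, KEAP1 and double knockouts relative to control, in cultured hepatocytes and in whole liver, with 95% confidence intervals from limma; circles are fits over all arrays of a tissue, squares are fits without the 4 arrays, and filled symbols passed an adjusted p of 0.05. Il1a in hepatocytes is filled for NEMO knockout at 1.37 and double knockout at 1.68, and no liver circle is filled.

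**Figure D2:**
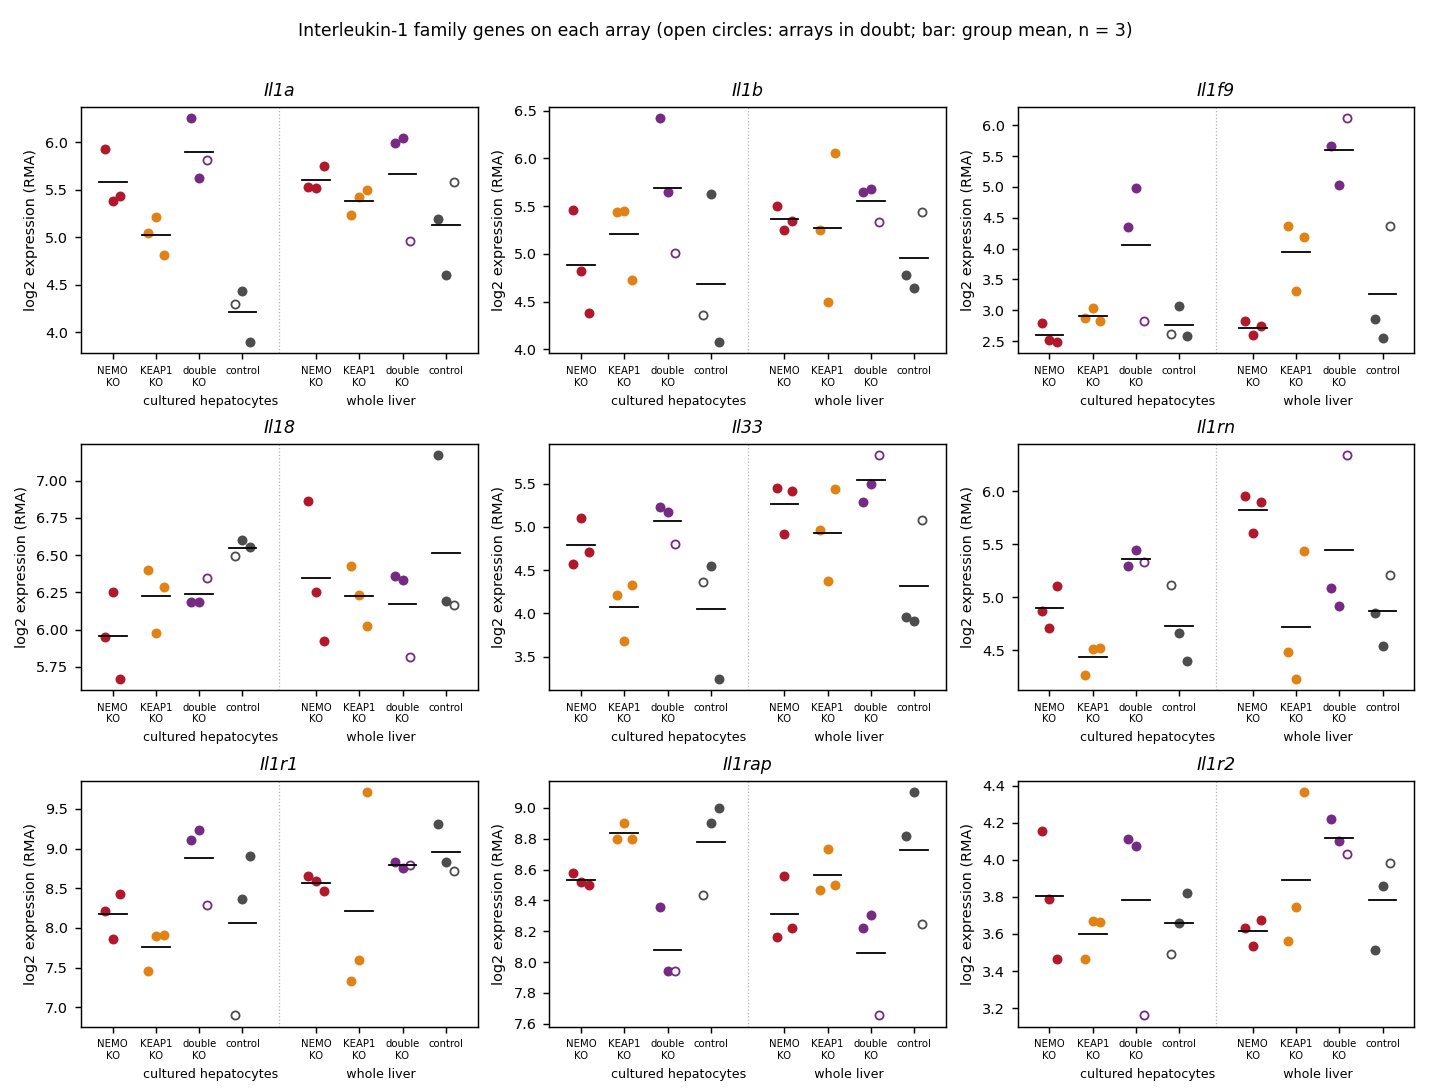
Log2 expression of the 9 genes on each array, by genotype, in cultured hepatocytes and in whole liver; open circles are the 4 arrays that stood apart and bars are group means. Il1f9 in liver is highest on the 3 double knockout arrays (5.04 to 6.11), with the array labelled control 3 at 4.37.

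Il1a encodes interleukin-1 alpha, a membrane-bound and nuclear cytokine released by damaged cells. In hepatocytes its log2 values were 5.92, 5.38 and 5.44 in NEMO knockout, 5.04, 5.21 and 4.81 in KEAP1 knockout and 6.25, 5.62 and 5.81 in double knockout, against 4.30, 4.44 and 3.90 in control. Every knockout array lay above every control array. NEMO knockout hepatocytes averaged 5.58 ± 0.30 and control hepatocytes 4.21 ± 0.28 (SD, n = 3 each), a rise of 1.37 (SE 0.20, 95% interval 0.93 to 1.82, adjusted p = 0.00118). Double knockout hepatocytes averaged 5.89 ± 0.32, a rise of 1.68 over control (SE 0.20, adjusted p = 0.000173). The KEAP1 knockout value, 0.81 above control, had an adjusted p of 0.0662. Double knockout was 0.87 above KEAP1 knockout (adjusted p = 0.0394, and 0.0583 without the 4 arrays), while its difference of 0.31 from NEMO knockout had a 95% interval of -0.13 to 0.75. Both rises over control kept their calls when any 1 of the 6 arrays compared was left out, with changes of 1.20 to 1.49 for NEMO knockout and 1.51 to 1.82 for double knockout. The mean of 12 Kupffer cell genes was also higher in these cultures, at 7.54 to 7.99 in NEMO knockout and 7.96 to 8.41 in double knockout against 5.84 to 6.83 in control, and its part in the Il1a values was not tested.

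Il1a in liver was 5.53, 5.52 and 5.75 in NEMO knockout, 5.23, 5.42 and 5.50 in KEAP1 knockout and 5.99, 6.05 and 4.96 in double knockout, against 5.19, 4.61 and 5.58 in control. The liver groups overlapped, and the arrays labelled double knockout 3 and control 3 were the lowest and highest of their groups. With all arrays the liver changes were 0.47 for NEMO knockout and 0.54 for double knockout, with adjusted p of 0.405 and 0.299. Leaving out the 4 arrays gave 0.70 (adjusted p = 0.0206) and 1.12 (adjusted p = 0.00366). The liver change minus the hepatocyte change was -0.90 for NEMO knockout and -1.15 for double knockout, with adjusted p of 0.457 and 0.413. Ordered by mean, Il1a ran from 5.89 in double knockout hepatocytes to 4.21 in control hepatocytes, and 6 of the 7 neighbouring groups in that order overlapped. The exception was KEAP1 knockout hepatocytes above control hepatocytes at the low end.

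RefSeq's GRCm38.p6 promoter table held 13 windows of 250 bases before a start for the 9 measured genes. The 2 windows printed belong to the genes whose values set the genotypes furthest apart, Il1a in hepatocytes and Il1f9 in liver. The searched motifs, on both strands, were the antioxidant response element core TGACNNNGC, which NRF2 with a small Maf protein binds, the AP-1 motif TGANTCA, which can lie inside such an element, and the kappa-B consensus. Il1a lies on the minus strand at chr2:129309973-129310222 and Il1f9 on the plus strand at chr2:24186226-24186475, with the AP-1 match in capitals.
Il1a: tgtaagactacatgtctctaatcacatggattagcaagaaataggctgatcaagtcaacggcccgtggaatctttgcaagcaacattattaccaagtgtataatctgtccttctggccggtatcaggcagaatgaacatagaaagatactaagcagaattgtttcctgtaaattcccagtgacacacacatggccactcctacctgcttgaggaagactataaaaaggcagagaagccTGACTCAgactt
Il1f9: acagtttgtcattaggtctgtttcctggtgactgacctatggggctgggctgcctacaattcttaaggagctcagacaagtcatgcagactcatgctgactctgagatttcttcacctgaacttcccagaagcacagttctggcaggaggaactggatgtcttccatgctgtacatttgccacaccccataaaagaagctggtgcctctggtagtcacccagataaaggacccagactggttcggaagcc
The AP-1 match of Il1a sits at bases -12 to -6 from the start. An AP-1 match stood in 2 of the 13 windows, that of Il1a and 1 of the Il1rn windows at -141 to -135, beside 6.75% of 32851 promoters. The kappa-B consensus stood in 1 window, of Il1r1 at -232 to -223, beside 7.25% of promoters. The antioxidant core stood in 0 windows, beside 10.2% of promoters, and none of the motifs stood in the Il1f9 window. These matches describe letters in short windows only.

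Il1b encodes interleukin-1 beta, the secreted cytokine of activated macrophages. In hepatocytes it had 5.46, 4.82 and 4.39 in NEMO knockout, 5.44, 5.45 and 4.73 in KEAP1 knockout and 6.42, 5.65 and 5.01 in double knockout, against 4.36, 5.63 and 4.08 in control. The 3 control arrays alone spread more widely than the 4 hepatocyte group means, which ran from 4.69 to 5.69. The double knockout change of 1.00 had a 95% interval of 0.09 to 1.92 and an adjusted p of 0.177. It was called without hepatocyte control 2 (1.47, adjusted p = 0.0372), the highest control array. Liver values were 5.50, 5.25 and 5.35 in NEMO knockout, 5.25, 4.5 and 6.05 in KEAP1 knockout and 5.65, 5.68 and 5.33 in double knockout, against 4.78, 4.65 and 5.44 in control. The changes in liver were 0.41, 0.31 and 0.60 for NEMO, KEAP1 and double knockout against control, all with adjusted p above 0.05 with all arrays and without the 4. All 7 neighbouring pairs of groups overlapped, from 5.69 in double knockout hepatocytes to 4.69 in control hepatocytes.

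Il18 encodes interleukin-18, a cytokine made as a precursor in macrophages and epithelia. It was the one ligand called lower against control: 5.95, 6.26 and 5.67 in NEMO knockout hepatocytes, against 6.49, 6.60 and 6.55 in control hepatocytes. These 2 groups did not overlap, and the change was -0.59 (SE 0.15, 95% interval -0.91 to -0.27, adjusted p = 0.0304). The call held in 1 of the 6 fits that left out an array, with adjusted p up to 0.106, and was lost without the 4 arrays (-0.62, adjusted p = 0.0615). KEAP1 knockout hepatocytes had 6.40, 5.98 and 6.29 and double knockout hepatocytes 6.19, 6.18 and 6.34, all below the lowest control value. Their differences from control were -0.33 and -0.31, with adjusted p of 0.357 and 0.24. In liver Il18 had 6.86, 6.25 and 5.92 in NEMO knockout, 6.43, 6.23 and 6.02 in KEAP1 knockout and 6.36, 6.33 and 5.82 in double knockout, against 7.17, 6.19 and 6.17 in control, and the groups overlapped throughout.

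Il18bp, the secreted binding protein that neutralises interleukin-18, was on the list of related genes and had narrow groups. In hepatocytes it ranged from 6.33 to 6.52 in NEMO knockout, from 5.91 to 6.15 in KEAP1 knockout and from 7.0 to 7.09 in double knockout, against 5.61 to 5.81 in control. It rose by 0.69 in NEMO knockout (SE 0.10, adjusted p = 0.00125) and by 1.32 in double knockout against control (SE 0.10, adjusted p = 7.96e-06). Double knockout was also higher than NEMO knockout, by 0.62 (adjusted p = 0.00548), and than KEAP1 knockout, by 1.02 (adjusted p = 0.000547). The interleukin-18 receptor chains Il18r1 and Il18rap stayed between 1.94 and 3.32 on all arrays.

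Il33 encodes interleukin-33, a nuclear alarm cytokine. Its hepatocyte values were 4.57, 5.10 and 4.71 in NEMO knockout, 4.21, 3.69 and 4.33 in KEAP1 knockout and 5.23, 5.17 and 4.81 in double knockout, against 4.37, 4.55 and 3.25 in control. Double knockout lay above all control arrays, with control 3 far below the other two. The rise in double knockout was 1.01 (SE 0.30, 95% interval 0.37 to 1.66, adjusted p = 0.0479), and 1.30 without the 4 arrays (adjusted p = 0.0371). It held in 3 of 6 fits that left out an array. The NEMO knockout value was 0.74 above control (adjusted p = 0.182) and the KEAP1 knockout value 0.02 above it (adjusted p = 0.985).

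Liver Il33 was 5.45, 4.92 and 5.41 in NEMO knockout, 4.96, 4.38 and 5.43 in KEAP1 knockout and 5.29, 5.50 and 5.83 in double knockout, against 3.96, 3.92 and 5.08 in control. The high control value is that of the array labelled control 3, and the 3 double knockout values lie above it. With all arrays the changes were 0.94 for NEMO knockout (adjusted p = 0.161) and 1.22 for double knockout (95% interval 0.51 to 1.93, adjusted p = 0.134). Leaving out the 4 arrays gave 1.32 (adjusted p = 0.00672) and 1.46 (adjusted p = 0.00818), and KEAP1 knockout was 0.99 above control (adjusted p = 0.051). Without liver control 3 alone, Il33 was called in both NEMO knockout and double knockout.

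Il1f9, the gene of interleukin-36 gamma, a cytokine of epithelial surfaces that acts on the receptor encoded by Il1rl2, had the widest span of group means among the 9 genes. In liver it had 2.82, 2.60 and 2.74 in NEMO knockout, 4.36, 3.31 and 4.18 in KEAP1 knockout and 5.67, 5.04 and 6.11 in double knockout, against 2.86, 2.54 and 4.37 in control. The 3 double knockout livers were above all other livers, and the array labelled control 3 lay with the KEAP1 knockout livers. Double knockout averaged 5.61 ± 0.54 and NEMO knockout 2.72 ± 0.11 (SD, n = 3 each), a difference of 2.88 (SE 0.43, 95% interval 1.95 to 3.82, adjusted p = 0.0113). The call held in 4 of 6 fits that left out an array and was lost without NEMO knockout 3 or double knockout 1, with adjusted p up to 0.073. With the 4 arrays left out the difference was 2.63 (adjusted p = 0.000295).

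Against control livers the Il1f9 change was 2.35 in double knockout (SE 0.43, adjusted p = 0.134) and 0.69 in KEAP1 knockout (adjusted p = 0.695). Without the 4 arrays these were 2.65 (adjusted p = 0.000448) and 1.25 (adjusted p = 0.0275), and NEMO knockout was 0.02 above control (95% interval -0.61 to 0.64). Il1f9 was low in both of these groups, above 16.3% to 22.2% of genes on NEMO knockout liver arrays. On liver control arrays 1 and 2 it was above 19.7% and 13.2% of genes. The replicate number was also entered as a block over all 12 liver arrays, with control 3 and double knockout 3 kept. In that limma fit double knockout against control gave 3 called genes beside 4.25% of all genes: Il1f9 (2.35, adjusted p = 0.0127), Il1rap (-0.66, adjusted p = 0.0322) and Il33 (1.22, adjusted p = 0.0229). Without liver control 3 alone, Il1f9, Il1rap and Il33 were called in this comparison as well.

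Cultured hepatocytes had Il1f9 at 2.79, 2.52 and 2.48 in NEMO knockout, 2.88, 3.03 and 2.82 in KEAP1 knockout and 4.35, 4.99 and 2.82 in double knockout, against 2.61, 3.07 and 2.59 in control. Double knockout arrays 1 and 2 stood above all others, whereas array 3, which goes against its sex label, lay with the other genotypes. With all arrays the double knockout change was 1.30 against control (adjusted p = 0.0522), 1.46 against NEMO knockout (adjusted p = 0.0606) and 1.14 against KEAP1 knockout (adjusted p = 0.165). Without the 4 arrays it was 1.84 (adjusted p = 0.000485), 2.07 (adjusted p = 0.000253) and 1.76 (adjusted p = 0.00128), and each of the 3 was also called without hepatocyte double knockout 3 alone. The interaction, by which the double knockout exceeded the sum of both single changes, was 1.30 with all arrays (adjusted p = 0.453) and 1.99 without the 4 (adjusted p = 0.0308). The interaction fits called 0 of the 9 genes in hepatocytes with all arrays, beside 0.0425% of all genes, and 0 in liver, beside 0.0106% of all genes. At an unadjusted p under 0.05, 4 and 1 of the 9 passed. The hepatocyte interaction fitted without the 4 arrays called 2 genes, Il1f9 and Il1r1, beside 0.117% of all genes.

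The NRF2 target list is given beside these values. In hepatocytes its mean over 13 measured genes was 7.15 to 7.43 in NEMO knockout, 9.02 to 9.06 in KEAP1 knockout and 9.84 to 10.22 in double knockout, against 7.06 to 7.77 in control. In liver it was 7.50 to 7.56 in NEMO knockout, 9.68 to 9.78 in KEAP1 knockout and 10.12 to 10.17 in double knockout, against 6.88, 7.08 and 10.09 in control. KEAP1 knockout hepatocytes had high NRF2 targets with Il1f9 no higher than 3.03, and hepatocyte double knockout 3 had a target mean of 9.84 with Il1f9 at 2.82. In liver Il1f9 was 3.31 to 4.36 in KEAP1 knockout and 4.37 on control 3. It was 2.60 to 2.82 in NEMO knockout livers and 2.86 and 2.54 on the other control livers. A part of NRF2 in the Il1f9 values was not tested. The 3 genes whose values followed Il1f9 most closely over 24 arrays, after each tissue's mean was subtracted, were Styk1 (Pearson r = 0.92), Brinp3 (0.90) and A530064D06Rik (0.87). The receptor of Il1f9, Il1rl2, ranged from 2.28 to 3.56 over all groups.

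**Figure D3:**
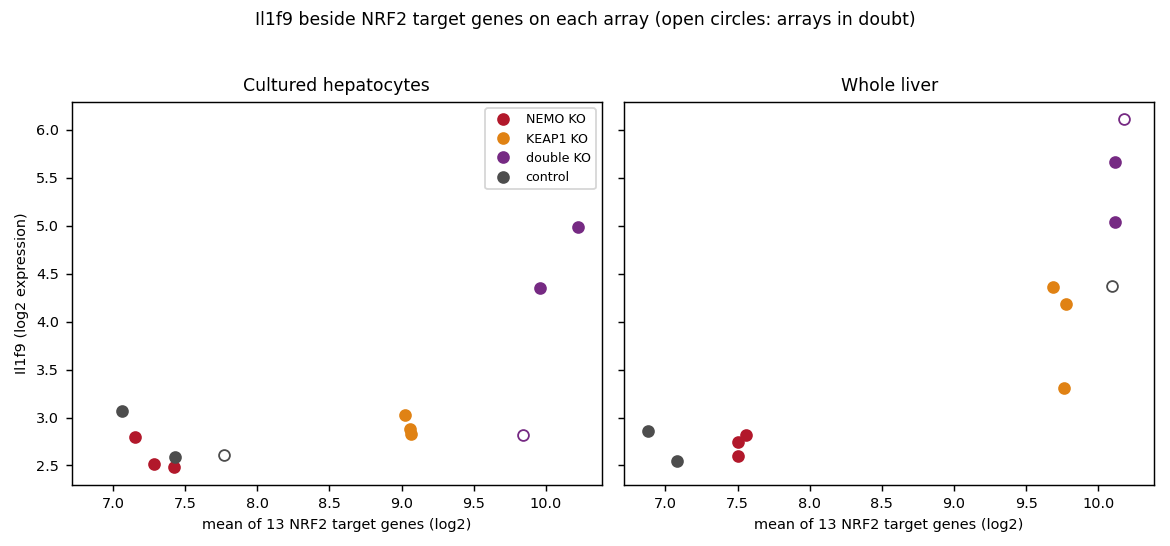
Il1f9 log2 expression against the mean log2 expression of 13 NRF2 target genes on each array, in cultured hepatocytes and in whole liver; colours are genotypes and open circles the 4 arrays that stood apart. Il1f9 is above 5 on the 3 liver double knockout arrays, and the liver array labelled control 3 sits at a target mean of 10.09.

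Il1rn encodes the interleukin-1 receptor antagonist, which occupies the receptor without signalling and is an acute phase product of hepatocytes. In hepatocytes it was 4.87, 4.71 and 5.10 in NEMO knockout, 4.27, 4.51 and 4.52 in KEAP1 knockout and 5.29, 5.45 and 5.34 in double knockout, against 5.12, 4.66 and 4.40 in control. Double knockout arrays lay above all other hepatocyte arrays in a narrow band. They averaged 5.36 ± 0.08 against 4.73 ± 0.36 in control (SD, n = 3 each), a rise of 0.63 (SE 0.18, adjusted p = 0.0385) that held in 1 of 6 fits without an array and was 0.84 without the 4 arrays (adjusted p = 0.0142). The difference from KEAP1 knockout was 0.93 (SE 0.18, 95% interval 0.55 to 1.31, adjusted p = 0.0142) and held in 4 of 6 such fits.

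Liver Il1rn had another order: 5.95, 5.61 and 5.90 in NEMO knockout, 4.48, 4.23 and 5.44 in KEAP1 knockout and 5.09, 4.92 and 6.34 in double knockout, against 4.86, 4.54 and 5.21 in control. NEMO knockout livers were above all control livers, with a change of 0.95 (SE 0.37, 95% interval 0.15 to 1.75, adjusted p = 0.207), or 1.12 without the 4 arrays (adjusted p = 0.0241). Liver double knockout 3, the array with fat and duct genes, had the highest single value. The liver change minus the hepatocyte change was 0.78 for NEMO knockout (adjusted p = 0.602).

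Il1r1 encodes the signalling receptor for both interleukin-1 forms. Hepatocyte values were 8.21, 7.86 and 8.43 in NEMO knockout, 7.46, 7.90 and 7.91 in KEAP1 knockout and 9.11, 9.23 and 8.29 in double knockout, against 6.90, 8.37 and 8.91 in control. Control 1, one of the 2 arrays that go against their sex label, was the lowest of all hepatocyte arrays. With all arrays no Il1r1 comparison was called, the double knockout difference from KEAP1 knockout being 1.12 (95% interval 0.26 to 1.98, adjusted p = 0.186). Without the 4 arrays Il1r1 was 0.88 lower in KEAP1 knockout than in control (change -0.88, adjusted p = 0.0416), 1.00 higher in double knockout than in NEMO knockout (adjusted p = 0.0132) and 1.42 higher than in KEAP1 knockout (adjusted p = 0.00219), with an interaction of 1.88 (adjusted p = 0.0239). In liver it was 8.66, 8.59 and 8.47 in NEMO knockout, 7.33, 7.59 and 9.72 in KEAP1 knockout and 8.84, 8.75 and 8.79 in double knockout, against 9.31, 8.83 and 8.72 in control. KEAP1 knockout 3 was the highest liver array and the other two KEAP1 knockout livers the lowest. The change of -0.74 (adjusted p = 0.691) was -1.49 without KEAP1 knockout 3 (adjusted p = 0.0234).

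Il1r2 encodes the decoy receptor, which binds interleukin-1 and does not signal. In hepatocytes it had 4.15, 3.79 and 3.47 in NEMO knockout, 3.47, 3.67 and 3.66 in KEAP1 knockout and 4.11, 4.07 and 3.16 in double knockout, against 3.49, 3.66 and 3.82 in control. In liver it had 3.63, 3.54 and 3.67 in NEMO knockout, 3.56, 3.75 and 4.37 in KEAP1 knockout and 4.22, 4.1 and 4.03 in double knockout, against 3.51, 3.86 and 3.98 in control. The 3 double knockout livers were above the 3 NEMO knockout livers, by 0.50 (95% interval 0.07 to 0.93, adjusted p = 0.323). No Il1r2 change was called with all arrays or without the 4, and all 7 neighbouring groups in its order overlapped.

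Il1rap encodes the accessory chain that the receptors of interleukin-1, interleukin-33 and interleukin-36 share, and with all arrays it was the one receptor gene that fell. Hepatocyte values were 8.58, 8.52 and 8.50 in NEMO knockout, 8.80, 8.90 and 8.80 in KEAP1 knockout and 8.35, 7.94 and 7.94 in double knockout, against 8.44, 8.90 and 9.0 in control. Every double knockout array lay below every other hepatocyte array. Double knockout averaged 8.08 ± 0.24 and control 8.78 ± 0.30 (SD, n = 3 each), a change of -0.70 (SE 0.14, 95% interval -1.0 to -0.39, adjusted p = 0.00615). It kept the call in 6 of 6 fits that left out an array, with changes of -0.87 to -0.59. Against KEAP1 knockout the change was -0.75 (adjusted p = 0.013, held in 4 of 6), and NEMO knockout was -0.25 from control (95% interval -0.55 to 0.06).

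In liver Il1rap was 8.16, 8.56 and 8.22 in NEMO knockout, 8.47, 8.73 and 8.50 in KEAP1 knockout and 8.22, 8.31 and 7.65 in double knockout, against 8.82, 9.11 and 8.25 in control. The low control value is again that of the array labelled control 3. The change was -0.41 in NEMO knockout (adjusted p = 0.341) and -0.66 in double knockout (adjusted p = 0.146) with all arrays. Both were called with the 4 arrays left out, at -0.65 (adjusted p = 0.00909) and -0.70 (adjusted p = 0.0123). Il1rap went opposite to Il33 over the 24 arrays after tissue means were subtracted (Pearson r = -0.82), as a description of arrays that share genotype groups. The genes most like Il1rap were Ces3b (r = 0.92), Rtp3 (0.92) and Ghr (0.92), the last of them the growth hormone receptor.

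For the other genes the closest partners on the same measure over 24 arrays were Adam23 (r = 0.92), Vsig4 (0.89) and Cd55 (0.88) for Il1a, Lfng (0.85), Nrros (0.84) and Celf2 (0.81) for Il1b, and Lair1 (0.91), Csf1 (0.89) and Pgm2 (0.89) for Il33. Vsig4 is also a gene of the Kupffer cell list. Il1rn was followed by Fblim1 (0.89), Adam8 (0.88) and Tm4sf4 (0.87). Lower values were reached for Il18, with Mrpl41 at 0.79, for Il1r1, with Cacnb1 at 0.72, and for Il1r2, with Lyar at 0.71. Among the members, Il1a went with Il1b (0.61) and Il33 (0.61), and Il1rn with Il33 (0.70).

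Hepatocytes were compared with liver within each genotype. Il1a was lower in control hepatocytes than in control livers, with a change of -0.92 (SE 0.26, adjusted p = 0.0424), 1 of 9 genes beside 5.13% of all genes. That call held in 1 of 6 fits without an array and was lost without the 4 arrays (-0.73, adjusted p = 0.124, with 3.06% of all genes called). In NEMO, KEAP1 and double knockout 0 of the 9 genes were called, beside 3.77%, 2.49% and 2.24% of all genes, while 1, 2 and 1 passed limma's unadjusted p under 0.05. Il1f9 in double knockout hepatocytes was 1.55 lower than in double knockout livers (change -1.55, adjusted p = 0.0688). In the fits without the 4 arrays Il1rn was called in NEMO knockout (-0.92, adjusted p = 0.0142, beside 7.86% of all genes) and Il1f9 in KEAP1 knockout (-1.04, adjusted p = 0.0121, beside 6.47%). The liver change minus the hepatocyte change was called for 0 of the 9 genes in each of the 5 comparisons so tested, where 0.0% to 0.0691% of all genes were called and 0 or 1 of the 9 passed limma's unadjusted p under 0.05.

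Markers of other liver cells differed between genotypes in the hepatocyte cultures. The defining hepatocyte genes were even, with means of 12.47 to 12.63 on all hepatocyte arrays and Alb at 13.23 to 13.37. Whole livers, with their other cells, had nearly the same values, 12.26 to 12.63 and 13.13 to 13.35. These lie near the highest value of all, 13.62, so the list cannot show whether hepatocyte content was equal. The mean of 12 Kupffer cell genes was 7.54 to 7.99 in NEMO knockout, 6.70 to 7.45 in KEAP1 knockout and 7.96 to 8.41 in double knockout hepatocytes, against 5.84 to 6.83 in control hepatocytes. No control array reached the NEMO or double knockout range. Of these 12 genes 10 rose in NEMO knockout, 2 in KEAP1 knockout and 11 in double knockout, beside 4.61%, 1.45% and 6.73% of all genes called higher and 2.05%, 0.425% and 2.99% called lower. Clec4f, which defines Kupffer cells, ranged from 8.66 to 9.10 in NEMO knockout and from 8.83 to 9.32 in double knockout, against 6.70 to 8.29 in control hepatocytes.

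Stellate cell genes gave means of 6.41 to 6.65 in NEMO knockout, 5.27 to 5.47 in KEAP1 knockout and 6.08 to 6.28 in double knockout, against 4.55 to 5.13 in control hepatocytes, and 11, 4 and 11 of 12 rose. Endothelial genes gave 7.02 to 7.41, 6.69 to 7.17 and 7.36 to 7.56 in the same knockouts, against 5.24 to 6.14 in control, and 9, 9 and 10 of 10 rose. Genes of monocytes and recruited macrophages gave 4.87 to 5.55, 4.40 to 4.72 and 5.37 to 6.06, against 4.02 to 4.49 in control, and 4, 1 and 7 of the 10 measured rose. The neutrophil list had 0, 0 and 1 of 11 measured genes called higher, the last of these being 2 without the 4 arrays. In double knockout against control hepatocytes 1 of 8 cholangiocyte, 0 of 11 T and natural killer cell, 0 of 5 B cell, 1 of 11 mast and type 2 lymphoid cell and 1 of 7 fat cell genes rose. Whether these cells carried the changes in Il1a, Il33, Il1rn, Il18bp, Casp1, Vcam1 or other genes called in the cultures was not tested.

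In whole liver the Kupffer cell mean was 7.81 to 7.98 in NEMO knockout, 7.57 to 8.17 in KEAP1 knockout and 8.18 to 8.29 in double knockout, against 7.31 to 8.17 in control. Stellate cell genes averaged 7.86 to 8.35 in NEMO knockout, 6.84 to 7.25 in KEAP1 knockout and 7.47 to 8.43 in double knockout livers, against 6.39 to 7.51 in control livers. Genes of monocytes and recruited macrophages averaged 5.96 to 6.62, 5.04 to 6.02 and 6.04 to 6.56, against 4.52 to 6.03 in control. Endothelial genes averaged 7.56 to 7.66 in NEMO knockout, 7.81 to 7.85 in KEAP1 knockout and 7.87 to 7.95 in double knockout livers, against 6.93 to 7.87 in control. The lowest double knockout liver, at 7.871, was barely above the highest control liver, at 7.867. The Kupffer cell means were as close, at 8.180 and 8.174. For stellate cell genes every NEMO knockout liver lay above every control liver. The neutrophil list averaged 3.36 to 3.43, 3.29 to 4.14 and 3.70 to 3.92 in the same genotypes, against 3.35 to 3.64 in control, where double knockout livers again lay above control livers. With all arrays 0 genes of the endothelial and neutrophil lists were called in liver against control. With the 4 arrays left out 2, 5 and 7 of the 10 endothelial genes were higher in NEMO, KEAP1 and double knockout livers, and 1, 0 and 1 of the 11 neutrophil genes were lower. Of all genes 12%, 5.26% and 9.2% were called in either direction in these fits, and the neutrophil counts were close to these shares. The part of these cells in the liver values of Il33, Il1rn, Il1a and other genes called there was not tested.

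**Figure D4:**
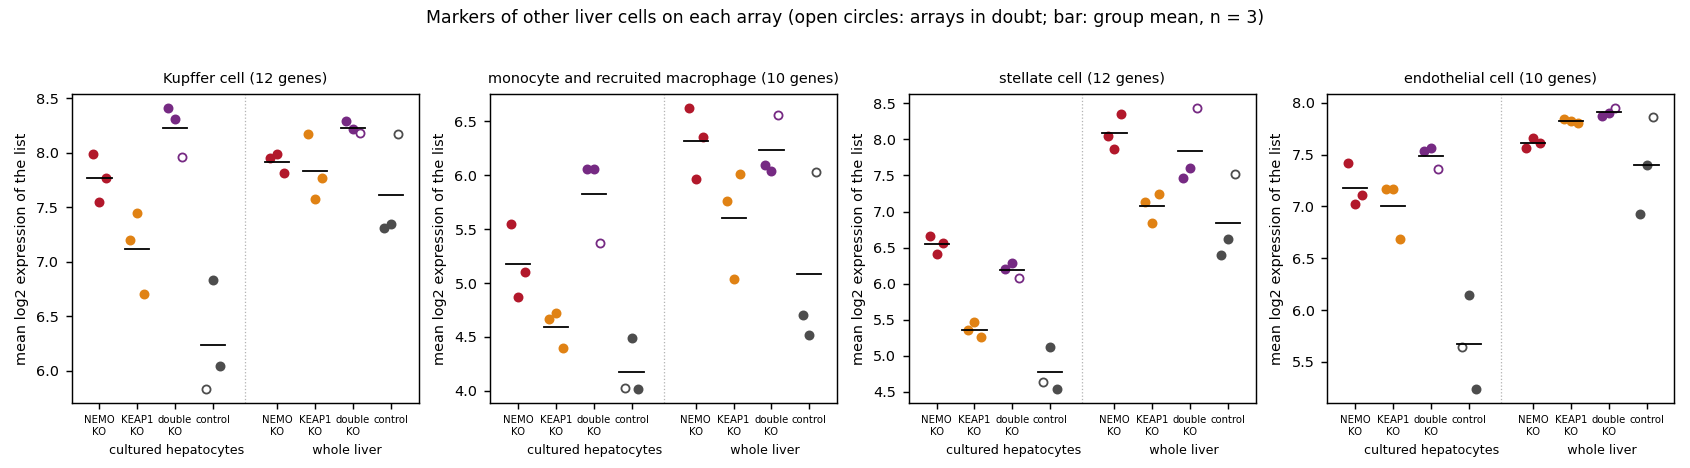
Mean log2 expression of marker gene lists of liver cell types on each array, by genotype, in cultured hepatocytes and in whole liver; open circles are the 4 arrays that stood apart and bars are group means of 3 arrays. In hepatocyte cultures the Kupffer cell mean is 7.96 to 8.41 in double knockout and 5.84 to 6.83 in control.

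Genes around the pathway were counted by list, beside 6.65% of all genes called for NEMO knockout and 9.72% for double knockout against control hepatocytes. Of the 12 measured receptor signalling genes, from Myd88 to Tab2, 1 rose in NEMO knockout hepatocytes, Tab2 (0.50, adjusted p = 0.0189), a scaffold of the TAK1 kinase, and 0 changed in double knockout. Among 17 cytokine processing and inflammasome genes, 2 rose and 3 fell in double knockout against control hepatocytes, beside 6.73% of all genes called higher and 2.99% lower, with a list median of 0.15 beside -0.03 over all genes. Casp1, the protease that cuts the interleukin-1 beta and interleukin-18 precursors, ranged from 4.12 to 4.54 in NEMO knockout, 3.76 to 3.78 in KEAP1 knockout and 4.52 to 5.01 in double knockout hepatocytes, against 2.58 to 3.45 in control. It rose by 1.35 in NEMO knockout (adjusted p = 0.00171) and by 1.78 in double knockout (adjusted p = 0.000151). Kupffer cell and endothelial genes were also higher in these cultures, and their part in the changes of Casp1 and the other genes listed here was not tested. Naip5, an inflammasome sensor, rose by 1.07 in double knockout (adjusted p = 0.022), while Gsdmd, the pore protein cut by caspase-1, had a change of -0.88 (adjusted p = 0.00513), Nlrp6 of -0.51 (adjusted p = 0.00242) and Ctsg of -0.76 (adjusted p = 0.0045). With the 4 arrays left out 4 rose and the number that fell was again 3, the additional genes that rose being Casp4, an inflammatory caspase (0.92, adjusted p = 0.023), and Aim2, a sensor of cytosolic DNA (1.03, adjusted p = 0.0317). In NEMO knockout 1 rose and 2 fell, Nlrp6 (-0.48, adjusted p = 0.00505) and Ctsg (-0.61, adjusted p = 0.0224). In KEAP1 knockout 1 of the 17 fell, the sensor gene Naip2 (-0.74, adjusted p = 0.0374).

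Of 22 measured genes known to respond to interleukin-1 or NF-κB, 4 rose and 1 fell in double knockout against control hepatocytes, beside 6.73% of all genes called higher and 2.99% lower, and 1 rose and 1 fell in NEMO knockout, beside 4.61% and 2.05%. Leaving out the 4 arrays gave 6 higher and 1 lower in double knockout, adding Tnfaip3, an inhibitor of NF-κB signalling (0.92, adjusted p = 0.0154), and the monocyte chemokine Ccl2 (1.20, adjusted p = 0.0438). The adhesion molecule Vcam1 rose by 1.78 in NEMO knockout (adjusted p = 7.09e-05) and by 2.18 in double knockout (adjusted p = 1.18e-05). Lcn2, an iron-binding acute phase protein, rose by 2.50 in double knockout (adjusted p = 0.00683), the neutrophil chemokine Cxcl2 by 1.73 (adjusted p = 0.0463) and the prostaglandin synthase Ptgs2 by 1.14 (adjusted p = 0.0208). The acute phase gene Saa3 went the other way, with a change of -1.99 in NEMO knockout (adjusted p = 0.00241) and -1.30 in double knockout (adjusted p = 0.0229). Its values were 3.58 to 4.36 in NEMO knockout, 5.22 to 5.72 in KEAP1 knockout and 4.14 to 5.34 in double knockout hepatocytes, against 5.32 to 6.13 in control. In KEAP1 knockout hepatocytes 0 of the 22 were called. In liver with all arrays 0 genes of these 3 lists were called against control in any genotype. In livers without the 4 arrays Casp1 was higher in NEMO knockout (0.85, adjusted p = 0.0332) and double knockout livers (0.95, adjusted p = 0.0366), Vcam1 in all 3 genotypes (1.87, 1.00 and 1.49 for NEMO, KEAP1 and double knockout) and Lcn2 in double knockout (3.11, adjusted p = 0.0277). In the same fits Nlrp6 was lower in NEMO knockout (-0.55, adjusted p = 0.00717) and double knockout livers (-0.42, adjusted p = 0.0485), and Gsdmd in double knockout livers (-0.84, adjusted p = 0.043). Il18bp was higher in NEMO knockout (0.76, adjusted p = 0.0142) and double knockout livers (0.67, adjusted p = 0.0455).

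All 11 other family genes listed were measured, from 14 names of which 3 are newer names of genes also listed under older ones, and Il18bp was the one called in hepatocytes. The ligand genes Il1f5, Il1f6, Il1f8 and Il1f10 lay between 2.01 and 3.25 in every group. Sigirr, an inhibitory receptor of the family, ranged from 5.51 to 5.99 in NEMO knockout, 5.68 to 5.84 in KEAP1 knockout and 5.66 to 5.98 in double knockout hepatocytes, against 5.85 to 6.46 in control, and was not called.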

How the data were processed

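The authors deposited log2 expression values, 1 for each probe set on each array, which the submitters' processing notes credit to RMA (background correction, quantile normalisation and summarisation). The version of RMA is not stated in these sources, nor is whether every array went through one run. Values ran from 0.51 to 13.62. Of 35556 probe sets, 21218 had 1 gene symbol in the platform annotation, 1881 had several and 12457 were not listed or had none; the brightest probe set of each gene gave 18820 genes. No column held values of an unknown sample. Replicates are separate samples per the labels' titles, which do not say more of how cultures were made, so p-values measure the spread between these samples.

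Genotypes were compared within a tissue over its 12 arrays, and tissues over all 24, with limma 3.58.1 in R 4.3.3 (lmFit, eBayes with an intensity trend), adjusting p over all genes. The limma script was tested on simulated data. Same-numbered liver control and double knockout arrays deviated together (r = 0.12, 0.14 and 0.23 over genes, after group means were subtracted). Other liver pairs did so as well, KEAP1 with double knockout at 0.09, 0.10 and 0.23 and NEMO with double knockout at 0.02, 0.21 and 0.26. The liver arrays control 3 and double knockout 3, which gave the 0.23 of their pair, are both among the 4 that stood apart. No title states a pairing, and same-numbered samples of all groups also share part of their title code. The replicate block put these numbers into the fit of all groups. Alternatives were a replicate block, centred arrays, quantile normalisation, a filter on dim genes (under the 25th percentile), the mean of probe sets, no intensity trend, 2 groups alone, leaving out each array and leaving out the 4 arrays that stood apart. Arrays have no read depth, and 3 per group limit the precision. Without the 4 arrays, control and double knockout groups keep 2 in each tissue, and single knockout groups 3. No detection calls were used. No scan dates were used, so no batch was tested.

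Named genes are all members, list genes that were called or given as levels, and the 3 genes most like each member by Pearson r. Members, lists and the 4 arrays were chosen with earlier results of these data known.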

Additional observations from a re-analysis of the deposited data

How the results depend on the processing

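Of the 11 changes called with all arrays, 8 kept the call without the 4 arrays that stood apart, 8 with the replicate block, 7 with centred arrays, 7 with quantile normalisation, 11 without dim genes, 11 with the mean of probe sets, 10 without the intensity trend and 6 with 2 groups alone; 36 of 66 fits that left out an array kept it. Centring moved the median change of all genes in double knockout against control hepatocytes to -0.23, beside -0.03. The number of the 9 genes called changed as follows, the cause being untested except that fewer arrays enter some fits. Shares of all genes are not given for most of these settings, so whether the counts moved with all genes was not tested. Without the 4 arrays it was 4 for NEMO knockout, 1 for KEAP1 knockout and 4 for double knockout against control livers (0 each with all arrays), 1 for NEMO knockout (2 with all) and 1 for KEAP1 knockout against control hepatocytes (0), 2 for double knockout against NEMO knockout hepatocytes (0), 2 for the hepatocyte interaction (0), and in hepatocytes against liver 0 in control (1), 1 in NEMO knockout and 1 in KEAP1 knockout (0 each). With the replicate block it was 2 and 3 for NEMO and double knockout against control livers. In hepatocytes it was 1 and 1 for NEMO and KEAP1 knockout against control and 1 for double knockout against NEMO knockout. Of all genes, the block called 4.25% for double knockout against control livers, beside 0.00531% without it. Same-numbered samples of all groups share a number and part of the code in their titles, and no title states a pairing. The hepatocyte number correlations of control and double knockout were -0.35, 0.14 and -0.24. Quantile normalisation gave 1 for double knockout against NEMO knockout hepatocytes and 0 for control hepatocytes against liver; centring gave 0 there and 1 for double knockout hepatocytes against liver. With 2 groups alone the counts in hepatocytes were 1 for NEMO knockout and 1 for double knockout against control (4 with all groups) and 5 for double knockout against KEAP1 knockout (3), and in hepatocytes against liver 1 for NEMO knockout, 1 for KEAP1 knockout and 0 for control. Leaving out 1 array, counts ranged in hepatocytes from 1 to 2 for NEMO knockout and 2 to 4 for double knockout against control, 0 to 3 for double knockout against KEAP1 knockout and 0 to 1 for double knockout against NEMO knockout and for the interaction; in liver from 0 to 1 for NEMO and KEAP1 knockout and 0 to 3 for double knockout against control, and 0 to 1 for double knockout against either single knockout and for the interaction; and from 0 to 1 between tissues in control and double knockout. The one reversed value was Il1r1 in KEAP1 knockout against control hepatocytes, 0.12 without control 3 (adjusted p = 0.926) beside -0.30 with all arrays; leaving out 1 array it ran from -0.88 to 0.12.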
